A study of Brassica napus with 3 samples.

Results

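Broad binding peaks of BnaC3.LFY, the LEAFY copy that rapeseed (Brassica napus) carries on chromosome C03, were described by where they lie, how strong they are and how they are spaced. The members were chosen by measured peak width: every peak on a chromosome whose deposited end and start differ by 800 bp or more. They number 1984, which is 3.18% of the 62314 peaks on chromosomes, in a list of 62949 peaks in all. The remaining 60330 chromosome peaks, 236 to 799 bp wide, are called the narrower peaks. Width is therefore no finding, and neither is any other value that the peak caller gave along with it: fold, -log10 p and -log10 q of the members are described without a test.

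The peaks come from DAP-seq, in which a transcription factor produced outside the plant captures fragments of purified genomic DNA that carries no chromatin. There were 2 LFY_DAP libraries (replicates 1 and 2) and 1 input library. All 3 used genomic DNA of Brassica napus, from inflorescence by the extraction protocol and from shoot apices by the source label, and the labels give no cultivar, plant age or treatment. The authors deposited 1 list for all libraries, so no value here has an error between replicates and the sequencing depth is unknown.

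LEAFY occurs across land plants and in flowering plants acts as a master regulator: it gives young primordia floral identity and switches on floral organ genes such as APETALA1 and AGAMOUS. It binds DNA as a dimer through a C-terminal domain, and an N-terminal domain lets dimers assemble into larger complexes, which helps it occupy DNA holding several sites. A peak caller reports 1 interval for a run of positions whose read pileup stays above its cutoff, so neighbouring sites can be reported as 1 wide peak. The rapeseed genome combines the A chromosomes of Brassica rapa with the C chromosomes of Brassica oleracea.

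Most broad peaks were only just broad, and a small tail reached several kilobases. The median width was 958.5 bp (quartiles 860 and 1166 bp), the 90th percentile 1524.5 bp and the maximum 5707 bp. From 800 to below 1000 bp there were 1125 members (56.7%), from 1000 to below 1250 bp 476, from there to below 1500 bp 169, from 1500 to below 2000 bp 157, from 2000 to below 3000 bp 48, and 9 were wider still. Together the members covered 2158 kb, or 8.53% of the DNA under chromosome peaks. Around the 800 bp limit the peaks were much alike in fold. The 57 members of 800 to 804 bp had a median fold of 11.7 (4.81 to 55.4), and the 45 peaks of 796 to 799 bp one of 10.6 (3.88 to 53.9). They were less alike in spacing: the nearest peak, edge to edge, lay at a median of 3997 bp from the former and 2167 bp from the latter.

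The 10 widest intervals had folds of 6.81 to 24.6, on both sides of the median of 11.0 for all members. The widest member, on A09 from 35330957 to 35336663, spanned 5707 bp at a fold of 9.59, with its nearest peak 436 bp away. The second, on A09 from 37287037 to 37291723, spanned 4687 bp at a fold of 9.49. The third was on C08, from 51622753 to 51626739, with 3987 bp and a fold of 24.6, at 99.9% of the chromosome's span, taken here as the distance to the end of its last peak. It was the only member of the 10 widest on a C chromosome, and no other broad peak lay within 500 kb of it. The remaining 7 were on A09 (24266205 to 24270080, 3876 bp, fold 11.98), A02 (18788487 to 18791892, 3406 bp, fold 15.4), A09 (43588072 to 43591368, 3297 bp, fold 22.0), A05 (19500610 to 19503748, 3139 bp, fold 6.81), A06 (25152281 to 25155367, 3087 bp, fold 14.5), A06 (17904508 to 17907569, 3062 bp, fold 8.36) and A09 (21492292 to 21495278, 2987 bp, fold 16.1). Thus 5 of the 10 were on A09, which held 24.6% of all members. Of the 100 widest members 82 were on A05, A06 or A09, which together held 43.3%.

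None of the 10 members of highest fold was among the 10 widest. Lists of 10 from 1984 members would seldom share a peak by chance, so nothing is read from this. The strongest, on A05 from 11417973 to 11420352, was 2380 bp wide with a fold of 71.0 and a -log10 p of 363. It was followed by a pair on A10, 1 from 17019115 to 17019932 (fold 69.5) and another from 24527245 to 24528554 (fold 66.2). Next came peaks on C03 from 55264327 to 55265513 (fold 62.5) and on A06 from 33025760 to 33027244 (fold 61.2). The last of the 10 were on C04 from 64183479 to 64184506 (fold 58.8), on A07 from 17920808 to 17921620 (fold 57.7), on C03 from 38315586 to 38316721 (fold 56.1), on A03 from 26831703 to 26832551 (fold 56.1) and on C01 from 25644551 to 25645504 (fold 56.0). Each of these 10 had at most 4 other broad peaks within 500 kb, and in none did the nearest peak of any width lie within 500 bp. Both traits were common among members: 72.3% had no peak within 500 bp. At most 3 others within 500 kb, a stricter limit than 4, were found for 54.7%. Of the 100 members of highest fold, 72 were on C chromosomes, which held 42.5% of all members. On A05, A06 or A09, which held 43.3%, there were 11, the reverse of the order by width.

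As a group, broad peaks were strong. Their median fold was 11.0 (quartiles 7.57 and 18.0) against 5.99 (4.66 and 9.15) in the narrower peaks. Of the members, 391 had a fold of at least 20 (19.7%), beside 6.28% of all chromosome peaks. A -log10 q of at least 10 was reached by 1707 (86.0%), beside 50.7% of all chromosome peaks. Both shares follow from values the rule is tied to, and nothing is read from them. Weak broad peaks also existed: 257 members (13.0%) had a fold under 6, down to 2.94, beside 50.1% of narrower peaks. Of the 100 chromosome peaks of highest fold, 13 were broad, beside 3.18% of all chromosome peaks. Values with more than 6 digits, or a score that was not a whole number, were found in 1882 members (94.9%) and in 65.7% of narrower peaks. Whether such values are averages over several lines of the peak caller was not tested.

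Broad peaks were concentrated on 3 chromosomes of the A subgenome. A09 held 489, or 9.04% of its peaks, A06 held 218 (6.73%) and A05 held 152 (5.76%). These 3 chromosomes, singled out after their values were seen, together held 859 members, 43.3% of all. On the other 7 A chromosomes the share ran from 1.12% on A10, with 16 members, to 2.66% on A01, with 57. The 9 C chromosomes were close to each other, from 1.92% on C01 (66 members) to 2.63% on C09 (114), and C03, which carries the gene itself, had 118 members at 2.32%. A05, A06 and A09 thus lay far above every C chromosome, while A02, A08 and A10 lay below every C chromosome.

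**Figure D1:**
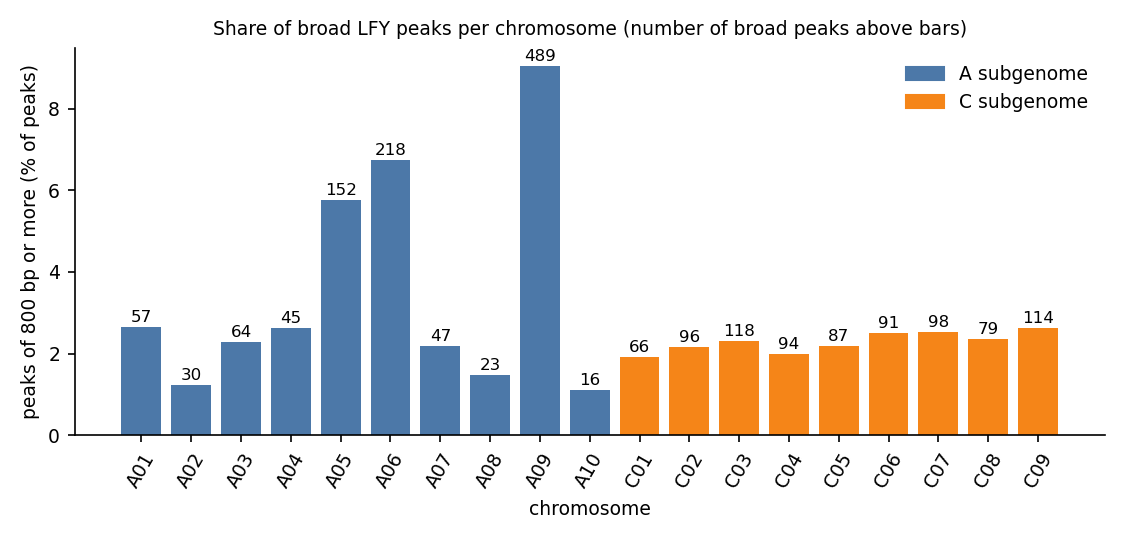
Bars show, for each of the 19 chromosomes, the percentage of its peaks that are 800 bp or wider, with the number of such peaks above each bar; A chromosomes are blue and C chromosomes orange. A05, A06 and A09 reach 5.76, 6.73 and 9.04%, and the C chromosomes lie between 1.92 and 2.63%.

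As subgenomes, A and C did not differ by more than the spread between their chromosomes. Broad peaks stood at 2.40 ± 2.12 per Mb of span on A (SD, n = 10 chromosomes) and 1.54 ± 0.207 per Mb on C (SD, n = 9), a C minus A difference of -0.862 (two-sided exact permutation test over chromosomes, p = 0.267, adjusted p = 0.267). Their share of peaks was 3.51 ± 2.70% on A and 2.29 ± 0.241% on C, a difference of -1.23 points (exact permutation p = 0.209, adjusted p = 0.238). The SD shows where the subgenomes part: A chromosomes ran from 0.603 to 7.21 broad peaks per Mb and C chromosomes only from 1.19 to 1.78. Without A09 the difference in density shrank to -0.327 per Mb (exact permutation p = 0.511). These p-values, adjusted over 8 tests, measure the spread between chromosomes and not between libraries.

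The excess on A05, A06 and A09 consisted of broad peaks of moderate fold. Members with a fold under 20 stood at 6.83 per Mb on A09, 4.38 on A06 and 3.21 on A05, against 0.377 to 1.49 per Mb on the other 7 A and 0.846 to 1.27 on the C chromosomes. Members with a fold of at least 20 showed no such excess, with 0.383 per Mb on A09, 0.300 on A06 and 0.275 on A05. They stood at 0.291 ± 0.0796 per Mb on A (SD, n = 10) and 0.498 ± 0.0859 on C (SD, n = 9), with overlapping ranges of 0.141 to 0.403 and 0.342 to 0.604. The median fold of the members was accordingly lowest on A05 (8.73), A09 (8.84) and A06 (9.01), was between 11.5 and 18.9 on the other 7 A and between 11.9 and 15.4 on the C chromosomes. The narrower peaks of A05, A09 and A06 had median folds of 5.96, 5.89 and 5.87, inside the range of the other chromosomes, 5.69 to 6.20. Members on the 3 chromosomes were also wider, at medians of 1033 to 1088 bp, than those on C chromosomes (890 to 938 bp), and on the other 7 A the medians ran from 865.5 to 1047 bp. Their part of each width class climbed from 31.0% between 800 and 1000 bp to 48.3% between 1000 and 1250 bp and 75.2% between 1500 and 2000 bp.

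Along A05, A06 and A09 the broad peaks lay in the middle of the chromosome. Between 30 and 70% of the span lay 117 of 152 members on A05 (77.0%), 188 of 218 on A06 (86.2%) and 442 of 489 on A09 (90.4%), against 27.8, 37.1 and 38.1% of their narrower peaks. In the 10% bin of the span with the highest share, broad peaks made up 21.4% of all peaks on A05, 18.5% on A06 and 21.7% on A09. In the outer 30% at either end of these chromosomes the share was at most 2.81% in any such bin. Pooled, the middle part held 37.9% of members and 37.5% of narrower peaks on the other 7 A, and 41.8 and 36.8% on the C chromosomes. Single chromosomes among them had local rises of their own, on A07 between 20 and 30% of the span (11 broad of 35 peaks, 31.4%), on A03 between 80 and 90% (17 of 62, 27.4%) and on A01 between 50 and 60% (9.22%). On the C chromosomes the highest share in any 10% bin was 7.69%, on C02. Centromeres and repeats were not located here.

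**Figure D2:**
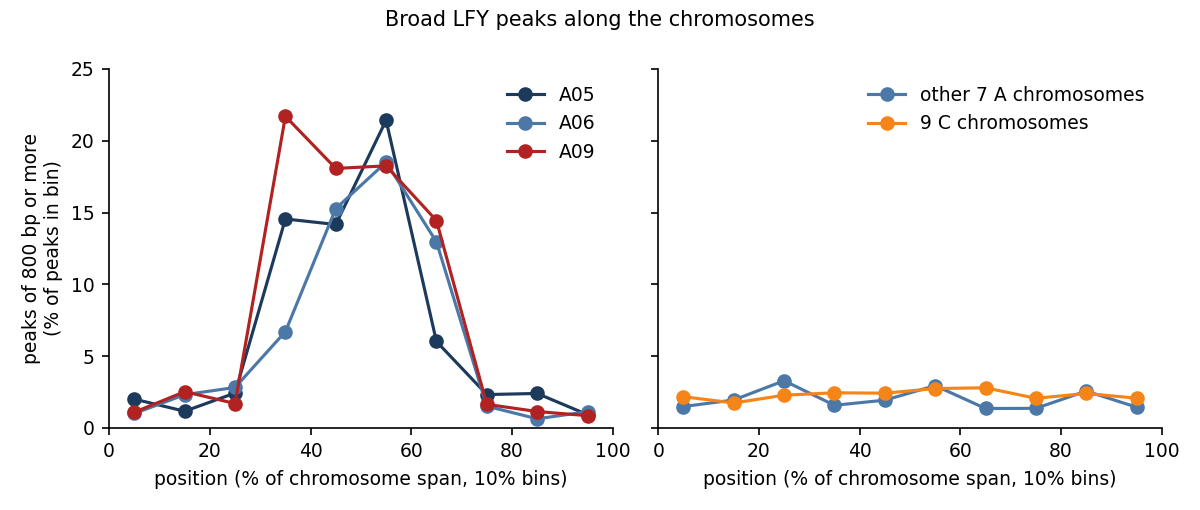
Points show the percentage of peaks that are 800 bp or wider in each 10% bin of the chromosome span, for A05, A06 and A09 singly (left) and for the other 7 A and the 9 C chromosomes pooled (right). The 3 chromosomes rise to between 18.5 and 21.7% in their middle part, and the pooled curves, which average over local rises on A01, A03 and A07, stay between 1.35 and 3.28%.

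Over all chromosomes the preference for the middle did not pass the test. The mean distance of a peak from the nearer end, in percent of the span, was larger for broad than for narrower peaks on 15 of 19 chromosomes, by 3.11 ± 5.76 points (SD, n = 19; two-sided exact sign-flip permutation test, p = 0.0296, adjusted p = 0.0592). The values reached 15.1 points on A06, 13.6 on A05, 12.8 on A09 and 10.3 on A01. They were between -1.94 and 3.99 points on the C chromosomes, and A03, A07, A08 and C06 had the opposite sign, with A03 lowest at -4.57. The effect was 4.82 ± 7.52 points on A and 1.20 ± 1.80 on C, a difference of -3.62 that did not pass (exact permutation p = 0.176, adjusted p = 0.234).

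The broad peaks of these regions were packed into stretches. When members whose centres lay at most 200 kb from the next were joined, a rule set after the data were seen, 24 stretches with at least 10 members each emerged. They held 729 members (36.7%) in 19.01 Mb, 2.04% of the chromosome span. Of these, 662 lay on A05, A06 or A09, and every stretch but 1, on C07 from 16.5 to 16.8 Mb with 10 members, was on an A chromosome. The largest, on A09 from 22984217 to 25898184, held 128 broad among 547 peaks. Other stretches on A09, from 21418172 to 22734846 and from 30738474 to 32151037, held 59 and 57. On A06 the stretch from 28630692 to 29611490 held 40, and on A05 that from 14335729 to 15280390 held 36. The densest in broad peaks was short and lay at 89.8% of the span of A03: 17 members in 0.193 Mb, from 41126700 to 41319277, with a median width of 1478 bp.

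Within the stretches broad peaks were of lower fold than elsewhere. Broad peaks made up 24.0% of peaks in stretches and 2.12% outside, a contrast that the joining rule itself sets. Narrower peaks had a median width of 404 bp in stretches and 360 bp outside, and a median fold of 6.12 and 5.98. Broad peaks had a median fold of 8.89 in stretches and 13.2 outside, and 3.98% and 28.8% of them had a fold of at least 20. Strong peaks were also a smaller part of the narrower peaks there, with 1.77% at a fold of at least 20 in stretches and 6.001% outside. Outside the stretches A05, A06 and A09 held 1.36, 1.63 and 1.27 broad peaks per Mb, inside the range of the C chromosomes (1.19 to 1.78). Taking out stretches that the members define lowers these densities by construction. The A chromosomes as a whole then stood at 1.14 ± 0.380 per Mb (SD, n = 10) and the C chromosomes at 1.52 ± 0.190 (SD, n = 9), which was not tested because the members themselves define the stretches. By fixed windows of 100 kb, 64 of the 8628 windows with any peak held 5 or more broad peaks. Of these windows 63 were on A chromosomes, which held 57.5% of all members. The fullest was on A03 from 41200001 to 41300000, with 11 broad among 27 peaks, and those next in order held 10 each, on A09 from 24400001 to 24500000 and from 37700001 to 37800000 and on A05 from 19300001 to 19400000. Several windows held 9, and of these the one with most peaks, on A09 from 25000001 to 25100000, had 34 in all and was covered by peaks over 22.0% of its length.

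Broad peaks lay nearer to their neighbours than narrower peaks did, and the contrast was large only on some A chromosomes. The nearest other peak, measured edge to edge, lay at a median of 1443.5 bp from a broad and 3772 bp from a narrower peak. Per chromosome, the log2 ratio of the broad to the narrower median averaged -0.70 ± 0.98 (SD, n = 19) and was below 0 on 15 of 19 chromosomes (exact sign-flip permutation p = 0.00375, adjusted p = 0.0194). The medians for broad and narrower peaks were 494 and 3168 bp on A06, 554.5 and 3269 bp on A05, 488 and 2483 bp on A09 and 1319 and 4247 bp on A01. On A04, A10, C02 and C07 the broad peaks were the more distant ones, at 7271 against 4399 bp on A10. A wide interval has its edges nearer to its neighbours at the same centre: between centres the mean log2 ratio was -0.33 and no longer passed after adjustment (exact sign-flip permutation p = 0.0208, adjusted p = 0.0556).

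**Figure D3:**
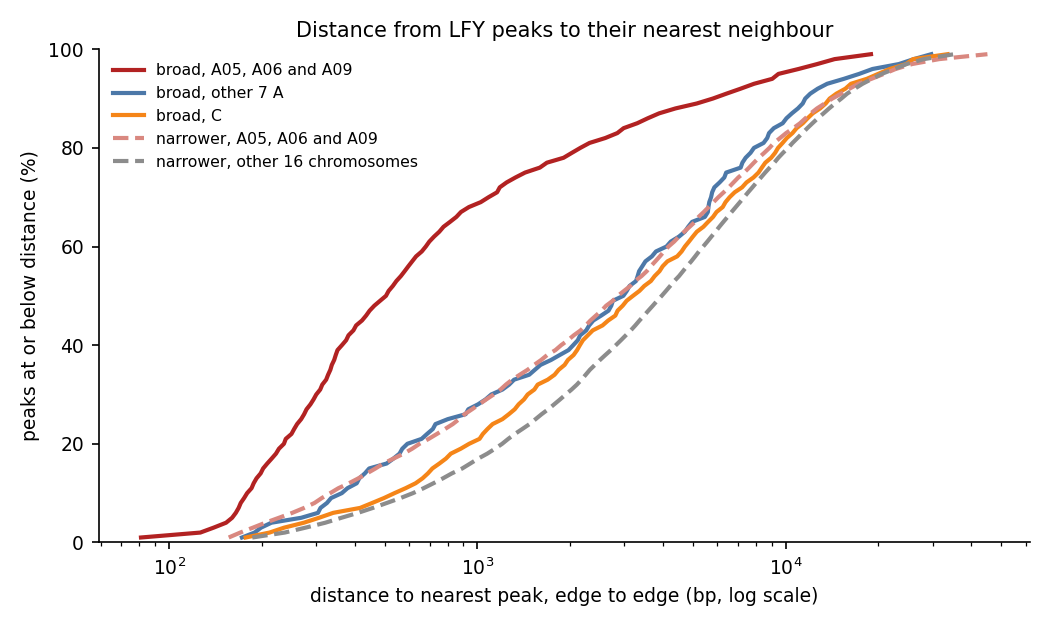
Curves give the percentage of peaks whose nearest other peak lies within the distance on the x axis (edge to edge, in bp, log scale), for broad peaks in 3 sets of chromosomes and for narrower peaks in 2. Broad peaks of A05, A06 and A09 have a median of 505 bp, narrower peaks of the same chromosomes 2854 bp, broad peaks of the other 7 A 2974 bp, broad C peaks 3196 bp and narrower peaks elsewhere 3961 bp.

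The close neighbours mostly formed pairs, and some made up longer rows of peaks. A neighbour within 500 bp was found beside 549 members (27.7%, 95% Wilson interval 25.7 to 29.7%), beside 9.88% of all chromosome peaks. The share was 50.7% on A09 (248 of 489), 46.1% on A05 (70 of 152) and 109 of 218 on A06, and it was 9.13% over the C chromosomes together (7.37 to 11.3%), which is near that of all peaks. On both sides such a neighbour flanked 105 members (5.29%), compared with 0.492% of narrower peaks. Of these members, 4 were on C chromosomes, 0.474% of broad C peaks. The nearest peak was itself broad for 15.4% of members and for 2.92% of narrower peaks. Joined over gaps of at most 500 bp, 334 members (16.8%) belonged to a pair, compared with 8.04% of narrower peaks. A row of 3 or more peaks held 215 members (10.8%), compared with 1.26% of narrower peaks. The row richest in broad peaks, on A05 from 19337367 to 19347707, held 5 broad among 7 peaks in 10341 bp. Another on A05, from 14368381 to 14375538, held 5 peaks, all broad, and a row of 4 on A09 from 37736607 to 37742106 was likewise all broad. The nearest neighbour of any member was 17 bp away, beside the member on A05 from 14524592 to 14525753. Next came gaps of 28 and 29 bp on A06 (members from 27642248 to 27643464 and from 27721722 to 27723990), 29 bp on A09 (23050166 to 23051026) and 42 bp on A05 (22885614 to 22886760).

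At the other end were solitary broad peaks. The nearest peak of any width lay at least 10 kb away for 233 members (11.7%) and for 19.9% of narrower peaks. The most isolated, on C03 from 37986661 to 37987477, had its nearest peak 49.6 kb away and a fold of 25.01. It was followed by peaks on C07 from 17892610 to 17893592 (49.2 kb, fold 25.1), C05 from 29351894 to 29352884 (46.8 kb, fold 8.09), A04 from 4188386 to 4189231 (45.6 kb, fold 27.8) and C02 from 46536258 to 46537235 (41.1 kb, fold 8.92). All 5 were under 1000 bp wide, as were 56.7% of all members. Of the 5, 4 were on C chromosomes, as were 156 of the 233. These 156 were 18.5% of broad C peaks, near the 19.9% of narrower peaks. Among broad A peaks the share was 6.75%.

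The surroundings of broad peaks were denser in peaks than those of narrower peaks, and the excess was larger on A than on C chromosomes. Within 50 kb on either side of its centre a broad peak had on average 1.45 ± 2.31 more peaks than a narrower peak of the same chromosome (SD, n = 19; more on 13 of 19; exact sign-flip permutation p = 0.00729, adjusted p = 0.0194). The mean excess was 2.75 ± 2.55 on A (SD, n = 10) and 0.00570 ± 0.452 on C (SD, n = 9), a C minus A difference of -2.74 (exact permutation p = 0.00556, adjusted p = 0.0194). At a width minimum of 600 bp that difference was -1.66 and no longer passed (exact permutation, adjusted p = 0.0714). On A09 the numbers were 17.3 peaks around broad and 10.8 around narrower peaks, on A05 14.1 and 8.60, and on A06 14.3 and 8.82. A01 (11.8 and 7.82) and A03 (11.2 and 7.46) also stood out, while the other 5 A chromosomes differed by -0.154 to 1.09 and the C chromosomes by -0.537 to 0.782 peaks. Counting narrower neighbours alone, the excess over all chromosomes was 0.829 and missed the threshold after adjustment (exact sign-flip permutation p = 0.0237, adjusted p = 0.0592). The C minus A difference in the edge distance effect, 0.83 on the log2 scale, did not pass (exact permutation p = 0.0667, adjusted p = 0.107).

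Crowded and scattered broad peaks differed in fold, width and spacing. With 20 or more other members within 500 kb, 597 members, all on A05, A06 or A09, had a median width of 1139 bp, a median fold of 8.74 and a median edge distance of 386 bp. With 0 others within 500 kb, 292 members had 909.5 bp, a fold of 13.7 and 3400.5 bp. The 794 members with 1 to 3 others were much like the solitary ones, at 906 bp, a fold of 13.5 and 3133 bp, and 580 of them were on C chromosomes. The edge distance fell most between the class of 4 to 9 others (139 members, 2099 bp) and that of 10 to 19 (162 members, 602 bp). The median fold fell more gradually, to 11.5 and 9.28 in these classes. A fold of at least 20 was held by 22 of the 597 most crowded members (3.69%) and by 95 of the 292 solitary ones (32.5%). Crowding and width were both read from the same list, so these are descriptions.

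**Figure D4:**
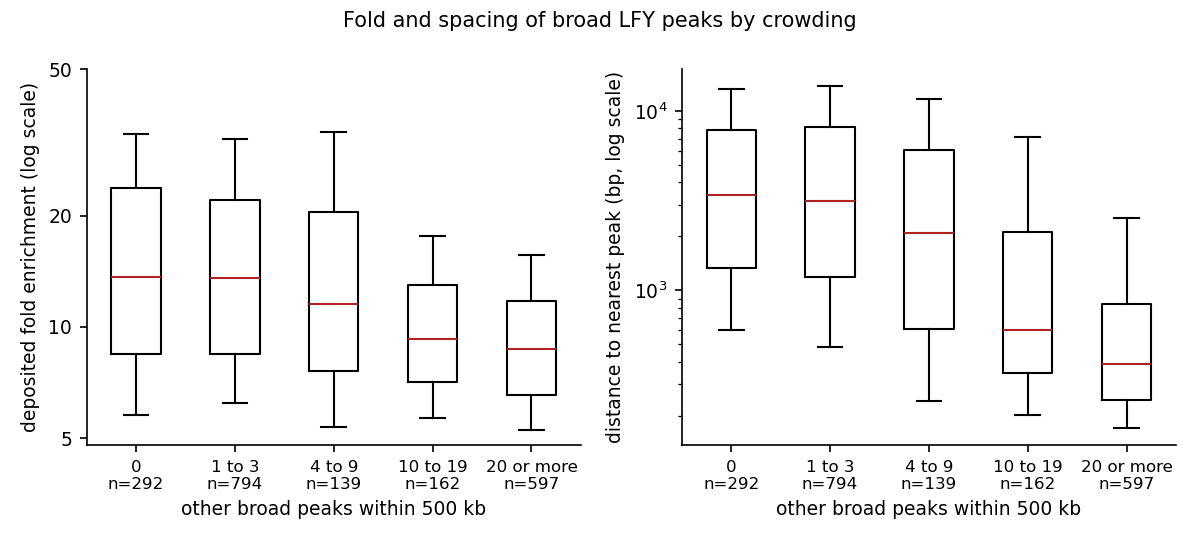
Boxes show the quartiles and median (red) of the deposited fold (left, log scale) and of the edge distance to the nearest peak of any width in bp (right, log scale) for broad peaks by the number of other broad peaks within 500 kb, with whiskers at the 10th and 90th percentiles. The median fold falls from 13.7 to 8.74 and the median distance from 3400.5 to 386 bp between the first and the last class.

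Within classes of fold, crowded broad peaks also had lower -log10 p than scattered ones. Between a fold of 8 and 10 the median -log10 p was 19.98 in 162 members with 10 or more others within 500 kb and 23.4 in 109 members with at most 3, at nearly the same median fold (8.96 and 8.92). Between 4 and 6 the values were 9.12 (119 members) and 10.3 (91 members), at median folds of 5.26 and 5.21. Between 20 and 30 they were 73.9 (29 members) and 90.5 (181 members), but there the crowded members also had the lower median fold, 22.0 against 24.2. The order of crowded below scattered held in the 7 classes of fold from 4 upwards, and not below 4 (5.72 in 10 and 5.36 in 18 members). The class from 30 upwards held only 2 crowded members. The crowded members also had the lower median fold between 10 and 15 (12.1 against 12.4) and between 15 and 20 (16.7 against 17.8). Between 6 and 8 the median folds were 7.02 and 7.08. The read pileups are not in the list, so whether the crowded regions had fewer reads was not tested.

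The widest member of each chromosome lay in crowded and in scattered surroundings alike. On A01 (17387114 to 17389021, 1908 bp), A03 (41317048 to 41319277, 2230 bp), A05, A06, A07 (9103216 to 9105142, 1927 bp) and C07 (16811866 to 16813940, 2075 bp) it had 10 or more other members within 500 kb, with folds of 20.5, 8.12, 6.81, 14.5, 16.2 and 10.2. On A09 it had 5 and on A08 (4378358 to 4379511, 1154 bp, fold 7.57) it had 4. On the remaining C chromosomes it had at most 2, and the folds were high on C05 (21474489 to 21476217, 1729 bp, fold 49.3), C01 (23789281 to 23791731, 2451 bp, fold 44.6), C03 (71992748 to 71994766, 2019 bp, fold 40.9), C04 (22854523 to 22856307, 1785 bp, fold 33.8) and C09 (36534187 to 36535894, 1708 bp, fold 33.0). C08 (fold 24.6, above), C02 (56397694 to 56399653, 1960 bp, fold 18.5) and C06 (34342183 to 34344022, 1840 bp, fold 6.52) were lower. The widest of A10 was its peak of 1310 bp at a fold of 66.2, named above, and those of A02 (fold 15.4, above) and A04 (3376200 to 3377746, 1547 bp, fold 11.1) had 2 and 1 other members within 500 kb.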

How the data were processed

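The authors deposited a single peak list without a header. The submitters' processing notes name MACS2, Bowtie2, fastp, HOMER and SAMtools. Versions, parameters and the way replicates were combined were not given in the sources used here. Sequence names carry the Westar v0 assembly, and positions are printed counted from 1. Columns were read from the MACS2 order: the deposited score, the deposited fold (a ratio to local background), and the deposited -log10 p and -log10 q. They are the authors' values per peak.

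Width was column 3 minus column 2. Distances, counts and shares were computed with Python 3.11.15, NumPy 2.4.6 and pandas 2.3.3. Chromosomes were the units of 8 exact two-sided permutation tests, adjusted together by the Benjamini-Hochberg method at 0.05: A against C over all 92378 divisions of the 19 chromosomes, and broad against narrower over 524288 sign flips. The tests were checked on simulated data. Wilson intervals cover counting only. Span ended at the last peak of a chromosome. Named were the 10 widest members, the 10 of highest fold, the widest per chromosome, the 5 most and 5 least distant from a neighbour and the 5 fullest windows. The members, lists and tests were chosen with earlier results of these data known. No Westar v0 sequence or annotation was used here, so genes and motifs under the peaks were not analysed.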

Additional observations from a re-analysis of the deposited data

Results flagged for a closer look

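The excess of peaks within 50 kb around broad over narrower peaks differed between the subgenomes, with a C minus A difference of -2.74 peaks (exact permutation p = 0.00556, adjusted p = 0.0194). Not all A chromosomes shared it. The excess was 3.77 to 6.47 on A01, A03, A05, A06 and A09. It was -0.154 to 1.09 on A02, A04, A07, A08 and A10, and -0.537 to 0.782 on the C chromosomes. At a width minimum of 600 bp the C minus A difference was -1.66 and did not pass (exact permutation, adjusted p = 0.0714). Among the A chromosomes, A10 was set off by the median fold of its broad peaks, 18.9, which rests on 16 members. It was 1 of 14 groups of chromosomes examined for such a value, and chance gives about 1 in 20. Outside the comparisons, 13 peaks of 800 bp or more lay on 7 unplaced scaffolds, 2.05% of the 635 scaffold peaks, with widths of 838 to 1278 bp and a median fold of 10.9.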

How the results depend on the processing

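No direction was reversed under any alternative for the 8 tested results. With a width minimum of 600 bp, the C minus A difference in peaks within 50 kb was -1.66 and did not pass. Between centres, the log2 distance ratio was -0.33, and with narrower neighbours alone the excess of peaks within 50 kb was 0.829, and neither passed. Some results passed only under an alternative. The distance from the chromosome end passed with a width minimum of 1000 bp (4.07 points), with a -log10 q of at least 10 (3.14) and when windows holding 20 or more peaks were dropped (3.09). It also passed without A03, A07, A08 or C06, and leaving out each chromosome in turn gave 2.44 to 3.54 points. The C minus A difference in the edge distance effect passed at 1000 bp (0.93) and at a -log10 q of at least 10 (1.01), all exact permutation tests. It also passed without A04 or A10, with a range of 0.65 to 1.03 over the chromosomes left out. The cause of these changes was not tested. The A against C tests of density and share did not pass under any alternative run. No analysis that pairs libraries was possible because 1 list was given for the 2 DAP replicates and the input. For the same reason leaving out a replicate could not be run. Without read totals, the depth behind a weak or narrow peak is unknown, and a broad region of few reads may have been split or missed.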
